A study of Homo sapiens with 4 samples.

Results

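A miR-124 duplex with a segmented guide strand was set against the same duplex with an intact guide, on 1 array each, in HCT-116 cells labelled dicer-. HCT-116 is an epithelial cell line from a human colon carcinoma, and Dicer is the enzyme that cuts microRNA precursors. The labels name the duplexes miR-124 G/P and miR-124 G10.12/P, each transfected at 10 nM, and say no more about the strands, so the place of the break is not described here. The background is the difference of 2 mock transfections of the same cells. All 4 arrays of the series enter, with total RNA taken at 24 h in every group, and the comparison covers all 19798 genes measured. The labels number the mock arrays 1 and 2 without saying whether they stem from different cultures, so p-values measure only the spread of these arrays, which may be technical. Each duplex has 1 array and no replicate check. A difference between the guides therefore cannot be told apart from a difference in how well each transfection worked or in how much of each duplex entered the cells.

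A microRNA acts as the guide strand of a duplex that is loaded into an Argonaute protein, while the other strand, the passenger, is discarded. The guide pairs through its seed, near its 5′ end, with matching sites in messenger RNAs, which are then shortened at the tail and degraded. miR-124 is the microRNA most typical of neurons. Among its best known targets are PTBP1, a splicing repressor, the CTDSP phosphatases, which act with the silencer REST, and the G1 kinases CDK4 and CDK6. Changes in other genes that follow from the loss of the targets are called secondary.

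On all 4 arrays 5 of the 8 measured epithelial markers (of 9 listed) stood above the median level of all genes, log2 6.76. VIL1, CEACAM5 and TSPAN8 were dim on each of them. Of 20 measured markers of other cell types (of 21), 4 stood above that level on every array (ACTA2, COL1A1, ALB and MBP), and the log2 of the summed intensity of the list was 11.7 and 11.6 in mock, 12.1 after the intact and 11.8 after the segmented duplex. ACTA2 and COL1A1, described with the higher genes, stood higher with the intact duplex, and the part of these markers in other results was not tested. DICER1, the gene of Dicer, had log2 levels of 11.21 and 11.28 in mock, 11.13 with the intact and 10.80 with the segmented duplex. Where its probes lie relative to the altered part of the gene is not known here, so these levels do not check the label. In bulk RNA a smaller number of cells of one kind and less RNA per cell cannot be told apart.

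Levels are log2 intensities throughout, and a difference of 1 is 2-fold. The levels of a gene are always given in the order mock 1, mock 2, intact and segmented. With the segmented duplex 211 genes stood at least 2-fold higher than with the intact duplex, which is 1.07% of all genes, and 149 stood at least 2-fold lower, or 0.753%. Between the mock arrays 21 genes (0.106%) were at least 2-fold higher and 26 (0.131%) at least 2-fold lower. At 1.5-fold the counts were 994 higher (5.02%) and 981 lower (4.96%), against 313 (1.58%) and 327 (1.65%) between the mock arrays. The SD of the difference over genes was 0.369 for segmented minus intact and 0.241 for mock 2 minus mock 1. In limma, with the spread taken from the mock pair alone, 0 genes (0%) passed an adjusted p of 0.05, the lowest adjusted p being 0.181. At an unadjusted p of 0.05 limma gave 3273 genes (16.5%), of which 1646 were higher with the segmented duplex and 1627 lower. The call depends on how limma estimates the spread. With a trended robust prior 2412 genes passed (12.2%), 1351 higher (6.82%) and 1061 lower (5.36%). Without the dimmest 40% of genes 1850 of 11879 passed (15.6%), 1031 higher (8.68%) and 819 lower (6.89%). No difference between the duplexes is called below, and members are given by their levels and by counts past 1.5-fold.

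To ask whether both duplexes moved the same genes equally far, genes were chosen by the mean of both duplex arrays against the mock mean, which treats the duplexes alike. There were 602 genes whose duplex mean lay at least 1 log2 unit under mock and whose mock mean was above the median level. Their median was -1.67 with the intact and -1.06 with the segmented duplex. Segmented minus intact had a median of 0.59 in these genes (lower quartile 0.29, upper quartile 0.94), against -0.02 in all genes and 0.01 for mock 2 minus mock 1 in the same 602. The segmented array was the higher of the duplexes in 551 of them and the lower in 51. It was at least 1.5-fold higher in 308 (51.2%), within 1.5-fold in 293 (48.7%) and at least 1.5-fold lower in 1, NEDD4L. Between the mock arrays 1 gene of the 602 was past 1.5-fold each way. With the segmented duplex 33 of the 602 genes lay within 1.5-fold of the mock mean, and with the intact duplex 0 did.

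The genes above mock showed the mirror image at a smaller size. There were 646 genes whose duplex mean lay at least 1 log2 unit over mock and above the median level. Their median was 1.53 with the intact and 1.05 with the segmented duplex, and segmented minus intact had a median of -0.49. The segmented array was at least 1.5-fold lower in 249 (38.5%), within 1.5-fold in 396 and at least 1.5-fold higher in 1, PADI2. In these genes mock 2 minus mock 1 had a median of -0.02. The sizes of both classes depend on the scaling, and with each array centred on its median there were 921 lower and 358 higher genes, with median differences of 0.57 and -0.51. With the segmented duplex 12 of the 646 lay within 1.5-fold of mock, and with the intact duplex 0.

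The difference was larger where the mean change was larger, up to 2 log2 units under mock and throughout above mock. Among genes 0.5 to 1 log2 unit under mock the median of segmented minus intact was 0.37, among those 1 to 1.5 under it was 0.53, and among those 1.5 to 2 under it was 0.74. It did not grow further at 2 to 3 units under mock, where it was 0.75 in 71 genes, and was 0.62 in the 6 genes past 3 units. Above mock the median went from -0.26 at 0.5 to 1 unit, through -0.44 and -0.62, to -0.80 at 2 to 3 units and -1.26 in the 10 genes past 3 units. Split by mock level into a lowest, a middle and a highest part of near-equal size, the 602 genes had medians of 0.51, 0.63 and 0.67, so the difference was present at each level.

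**Figure D1:**
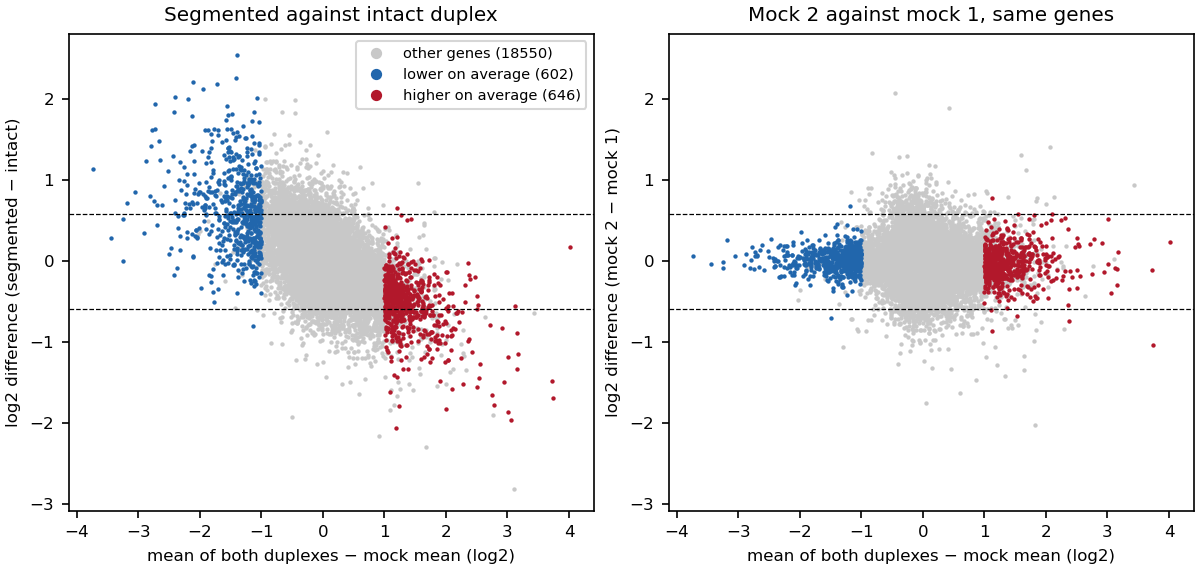
Left: the log2 difference of the segmented from the intact duplex for each of 19798 genes, against the mean change of both duplexes from mock; right: the difference of the mock arrays for the same genes. Blue marks the 602 genes lower on average and red the 646 genes higher on average, with dashed lines at 1.5-fold. On the left blue points lie mostly above 0 (median 0.59) and red points mostly below 0 (median -0.49), and on the right both centre near 0.

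Genes far from mock with one duplex and near mock with the other ran mainly one way. Of 875 genes at least 2-fold under both mock arrays with the intact duplex (4.42% of all genes), 218 were within 1.5-fold of mock with the segmented. Of 334 at least 2-fold under mock with the segmented duplex (1.69%), 4 were within 1.5-fold of mock with the intact. Among these, PPP1R14C, an inhibitor of a protein phosphatase, stood at 10.82 and 10.88 in mock, 11.02 with the intact and 9.81 with the segmented duplex. PLA2G12A, a secreted phospholipase A2, stood at 9.76 and 9.85 in mock, 9.46 with the intact and 8.45 with the segmented duplex. MB21D2 stood at 9.18 and 9.17 in mock, 8.87 and 8.12. Of 1171 genes at least 2-fold over both mock arrays with the intact duplex (5.91%), 166 were near mock with the segmented, and of 423 with the segmented duplex (2.14%), 2 were near mock with the intact. One of those 2 passed the median level, on the segmented array alone. It was TENT5C, a poly(A) polymerase, at 5.76 and 5.85 in mock, 6.12 with the intact and 7.08 with the segmented duplex.

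The literature list of miR-124 targets held 54 genes, of which 50 were measured. Most stood between mock and the intact duplex when the guide was segmented, but many were within 1.5-fold of their level with the intact guide. The median of the list was -1.24 with the intact and -0.93 with the segmented duplex, and segmented minus intact had a median of 0.35, against -0.02 in all genes and 0.02 for the mock arrays. Of the 50, 16 stood at least 1.5-fold higher with the segmented duplex, 33 were within 1.5-fold and 1 stood lower. The background is 5.02% higher and 4.96% lower. As for all genes, none passed limma in the main setting. Within the 602 genes lower on average there were 29 listed targets, of which 18 were within 1.5-fold and 11 at least 1.5-fold higher. Over all 602 genes the shares were 48.7% within and 51.2% higher. The median difference was 0.45 in the 29 targets and 0.59 in the 602.

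Several targets, some with known roles in the neuronal switch or in G1, were far below mock with both duplexes, whose levels were within 1.5-fold. CTDSPL, a REST-associated phosphatase, had a level of 10.71 on both mock arrays, 8.39 with the intact and 8.30 with the segmented duplex. CDK4, the cyclin D kinase of G1, stood at 11.75 and 11.81 in mock, 8.86 with the intact and 9.31 with the segmented duplex. VAMP3, a vesicle fusion protein, stood at 11.18 and 11.12 in mock, 8.07 and 8.42. In these 3 genes the differences of both duplexes from the mock mean ran from -3.08 to -2.32, and the guides differed by -0.09, 0.45 and 0.35. The 0.45 of CDK4 is also the median difference of the 29 listed targets in the lower class, so only CTDSPL was level.

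Some scaffold and matrix genes were also far below mock with both duplexes, whose levels were within 1.5-fold but not always level. IQGAP1, a scaffold of actin and signalling proteins, stood at 11.64 and 11.72 in mock, 9.28 with the intact and 9.65 with the segmented duplex, although only 3 of its 5 probe sets gave the same sign. LAMC1, the laminin gamma 1 chain, stood at 11.81 and 11.82 in mock, 9.64 and 10.14. Its difference was 0.50, with 3 of its 4 probe sets of the same sign. CD164, a sialomucin, stood at 11.78 and 11.98 in mock, 9.40 and 9.72. Both duplex arrays were far under both mock arrays in each of these genes. SMYD3, a lysine methyltransferase, was at 9.24 and 9.12 in mock, 7.97 with the intact and 7.98 with the segmented duplex. CDK6, the partner kinase of CDK4, was at 12.26 and 12.23 in mock, 10.67 and 11.02, with 3 of its 4 probe sets of the same sign.

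Other targets were markedly less low with the segmented duplex. CD151, a tetraspanin that binds integrins, stood at 10.48 and 10.29 in mock, 8.25 with the intact and 9.91 with the segmented duplex, a difference of 1.66 or 3.17-fold. Its limma standard error, which rests on the mock pair, was 0.17, with an adjusted p of 0.181. PLOD3, a collagen lysyl hydroxylase, stood at 10.13 and 9.77 in mock, 7.70 and 9.28. ITGB1, the integrin beta 1 chain, stood at 13.06 and 13.14 in mock, 10.61 and 12.17. In these genes the segmented array lay nearer to mock than to the intact array. CERS2, a ceramide synthase, stood at 10.66 and 10.59 in mock, 7.21 with the intact and 8.70 with the segmented duplex, so that it was still 1.92 below mock. PTBP1 stood at 12.27 and 12.24 in mock, 9.73 with the intact and 11.08 with the segmented duplex, a difference of 1.35 with the same sign in all 3 probe sets. PTBP2, the neuronal relative whose messenger is held down by PTBP1, stood at 10.30 and 10.31 in mock, 12.31 and 12.04. Its 2 duplex levels were within 1.5-fold although those of PTBP1 were not.

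Further targets covered the range between CTDSPL and CD151. SUCLG2, a subunit of succinyl-CoA ligase, stood at 9.54 and 9.60 in mock, 6.09 with the intact and 6.95 with the segmented duplex. RHOG, a small GTPase, stood at 8.91 and 8.86, 6.19 and 6.78. CTDSP1 stood at 10.52 and 10.38, 9.07 and 9.54. Segmented minus intact was 0.86, 0.59 and 0.47 in these. HADH, a mitochondrial dehydrogenase of fatty acid oxidation, was near mock with the segmented duplex, at 10.23 and 10.20 in mock, 8.93 and 10.09. The single listed gene at least 1.5-fold lower with the segmented duplex was EFNB1, an ephrin, which was above mock with the intact duplex, at 7.38 and 7.52 in mock, 8.36 with the intact and 7.59 with the segmented.

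**Figure D2:**
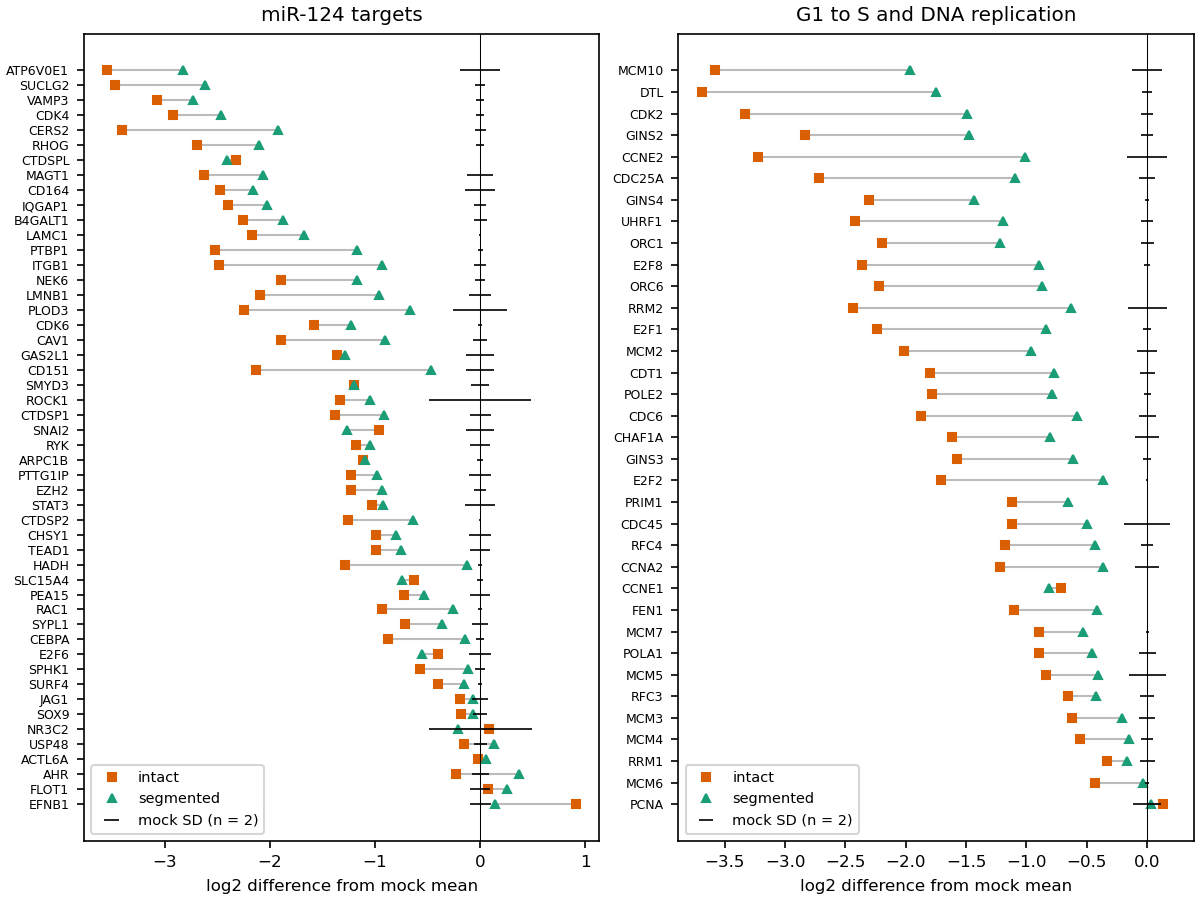
Log2 difference from the mock mean for 50 measured miR-124 targets (left) and 35 measured genes of G1 to S progression and DNA replication (right), ordered by the mean of both duplexes; squares are the intact and triangles the segmented array, 1 array each, and black bars at 0 are the mock SD (n = 2). In CTDSPL both marks are far left and close together, and in CDK4 both are far left with the triangle somewhat to the right. In DTL, CDK2 and CCNE2 the triangle stands well to the right of the square.

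The genes of G1 to S progression and DNA replication had a larger median difference between the duplexes than the targets had. Many of them are switched on by E2F transcription factors once CDK4, CDK6 and CDK2 have inactivated the retinoblastoma protein. Of 38 listed, 35 were measured, with a median of -1.71 with the intact and -0.66 with the segmented duplex and a median difference of 0.97, against -0.02 in all genes. There were 24 genes at least 1.5-fold higher with the segmented duplex (5.02% of all genes), 0 lower (4.96%) and 11 within, and 15 were at least 2-fold higher (1.07%). None passed limma in the main setting. All 20 of the members among the 602 lower genes were at least 1.5-fold higher with the segmented duplex (51.2% of the 602), with a median of 1.35. The G1 kinases CDK4 and CDK6 were given with the targets and are not members of this list. Both are among the 602 and were within 1.5-fold, with differences of 0.45 and 0.35, so that count depends on how the list was drawn. The median mean change of those 20 genes, -1.59, was close to that of the 29 targets in the same class, -1.53, whose median difference was 0.45. The difference between the lists was not tested.

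The cyclin gene CCNE2 and the kinase gene CDK2 were among the members of this list furthest apart. CCNE2, the cyclin E2 partner of CDK2, stood at 10.37 and 10.60 in mock, 7.26 with the intact and 9.47 with the segmented duplex, a difference of 2.21 or 4.63-fold with a limma standard error of 0.18 and an adjusted p of 0.181. CDK2 stood at 11.23 and 11.16 in mock, 7.86 and 9.71. CDC25A, the phosphatase that activates CDK2, stood at 10.80 and 10.89, 8.13 and 9.75. In all of these the segmented array lay below both mock arrays and well above the intact array. CCNE1, which encodes cyclin E1, did not share this, at 11.80 on both mock arrays, 11.09 with the intact and 10.99 with the segmented duplex. The duplex levels of the kinases CDK4 and CDK6, given with the targets, were within 1.5-fold.

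Of the E2F factors, the 3 in the list, E2F1, E2F2 and E2F8, had the same order. E2F1 stood at 8.28 and 8.33 in mock, 6.07 with the intact and 7.47 with the segmented duplex. E2F2 stood at 10.91 and 10.89, 9.19 and 10.53, and E2F8, a repressor member of the family, at 8.02 and 8.06, 5.67 and 7.14. In each the segmented array was nearer to mock than the intact array was.

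Replication genes covered a range. DTL, which directs the licensing factor CDT1 to degradation, stood at 10.89 and 10.95 in mock, 7.23 with the intact and 9.17 with the segmented duplex. MCM10, which helps start replication forks, stood at 10.16 and 10.33, 6.67 and 8.28. RRM2, the regulated subunit of ribonucleotide reductase, stood at 12.78 and 13.00, 10.45 and 12.26. Of the MCM2 to MCM7 helicase genes, MCM2 stood at 11.06 and 10.94 in mock, 8.99 and 10.04. MCM3, MCM4, MCM5, MCM6 and MCM7 were closer together and differed by 0.36 to 0.43. PCNA, the sliding clamp, was at 12.32 and 12.48 in mock, 12.53 with the intact and 12.43 with the segmented duplex, so both duplex arrays lay above mock 1 and the segmented array lay below mock 2.

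The promoters of DTL, CDC25A and E2F1 are given as examples from this list that hold an E2F-type motif, which others of the list lack. They are from RefSeq (GRCh38.p14), each from 250 bases before to 50 after the gene's start. They read 5′ to 3′ along the gene, with E2F-type motifs in capitals. The motifs searched were TTTCCCGC, TTTGGCGC, TTTCGCGC and TTTGCCGC on both strands, whose other-strand forms are GCGGGAAA, GCGCCAAA, GCGCGAAA and GCGGCAAA. Matches of different motifs may overlap, and a promoter was counted once.
DTL (chr1:212035498-212035797, plus strand): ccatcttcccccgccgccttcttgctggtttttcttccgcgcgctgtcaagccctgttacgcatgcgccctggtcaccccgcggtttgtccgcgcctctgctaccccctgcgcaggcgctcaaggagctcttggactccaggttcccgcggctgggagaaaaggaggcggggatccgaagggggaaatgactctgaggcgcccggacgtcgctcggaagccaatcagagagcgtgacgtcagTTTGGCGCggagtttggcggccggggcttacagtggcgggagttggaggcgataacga
CDC25A (chr3:48188368-48188667, minus strand): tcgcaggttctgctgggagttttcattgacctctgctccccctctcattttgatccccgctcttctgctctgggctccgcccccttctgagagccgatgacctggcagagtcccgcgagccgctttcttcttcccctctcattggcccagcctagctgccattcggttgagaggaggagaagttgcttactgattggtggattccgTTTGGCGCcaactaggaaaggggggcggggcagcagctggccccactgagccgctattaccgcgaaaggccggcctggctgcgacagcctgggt
E2F1 (chr20:33686336-33686635, minus strand): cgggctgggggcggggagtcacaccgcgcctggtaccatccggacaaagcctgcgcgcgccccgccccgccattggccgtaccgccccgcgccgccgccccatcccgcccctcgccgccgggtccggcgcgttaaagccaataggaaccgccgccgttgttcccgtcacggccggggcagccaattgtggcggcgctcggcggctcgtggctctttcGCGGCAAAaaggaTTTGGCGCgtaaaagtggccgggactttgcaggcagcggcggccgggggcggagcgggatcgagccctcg

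DTL and CDC25A each hold 1 match and E2F1 holds 2. Such a motif was in 17 of the 29 promoters found for the measured genes of the list (58.6%), against 908 of all 27305 promoters in the table (3.33%) and 4.34% of those of measured genes. Among the 602 genes lower on average, it was in 27 of 246 promoters of genes at least 1.5-fold higher with the segmented duplex (11%), and in 11 of 238 of genes within 1.5-fold (4.62%). With the genes of the G1 to S list left out, the first share was 16 of 230 (6.96%) and the second stayed at 11 of 238. Among the listed targets it was in 1 of 37, in the mitosis list in 3 of 27 (11.1%) and in the p53 list in 3 of 20 (15%). The CCAAT box, searched with ATTGG on the other strand, was in 69.0% of the promoters of the G1 to S list, 81.5% of the mitosis list, 55% of the p53 list and 35.7% of all promoters. Since many genes of the G1 to S list are switched on by E2F factors, its E2F share describes the choice of list. A match is a description of these letters and was not tested as a site.

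Genes of mitosis, which are switched on later in the cycle, had a smaller median difference than the G1 to S list, though not than the targets. Their median with the intact duplex was also nearer to mock than that of the G1 to S list. All 32 listed were measured, with a median of -0.38 with the intact and 0.03 with the segmented duplex. Segmented minus intact was above 0 in all 32 (in 31 with the mean of a gene's probe sets), from 0.004 to 1.12, with a median of 0.38. There were 5 genes at least 1.5-fold higher with the segmented duplex (background 5.02%), 0 lower (4.96%) and 27 within. None passed limma in the main setting.

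The 5 were BUB1B, BIRC5, KIF11, PLK1 and SPC25. BUB1B, a spindle checkpoint kinase, stood at 10.93 and 10.99 in mock, 9.61 with the intact and 10.74 with the segmented duplex. BIRC5, survivin of the chromosomal passenger complex, stood at 11.52 and 11.51, 10.49 and 11.35. KIF11, a spindle motor, was near mock with the segmented duplex, at 11.03 and 11.07, 10.53 and 11.20. PLK1, a mitotic kinase, did the same, at 10.29 and 10.15, 9.76 and 10.36. CDK1 was within 1.5-fold, at 12.36 and 12.31 in mock, 12.08 and 12.27.

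Over all genes, the 5 with the lowest mean of both duplexes among those within 1.5-fold were PAPSS2, COL12A1, ADI1, VAMP3 and CDK4. PAPSS2, which makes the sulfate donor of the cell, stood at 9.08 and 9.05 in mock, 5.48 with the intact and 5.77 with the segmented duplex. COL12A1, a collagen chain, stood at 10.65 and 10.64, 7.40 and 7.40, but only 1 of its 2 probe sets gave the same sign of the difference, which was near 0. ADI1, an enzyme of methionine salvage, stood at 11.87 and 11.79, 8.33 and 8.84. In COL12A1 the duplex arrays were level, while in PAPSS2 and ADI1 the segmented array was 0.29 and 0.52 higher than the intact array.

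The 6 lower genes with the largest difference included enzymes, a histone chaperone and a transporter. ARSB, a lysosomal sulfatase, stood at 7.50 and 7.95 in mock, 5.06 with the intact and 7.6 with the segmented duplex, a difference of 2.54 or 5.81-fold that 3 of its 4 probe sets shared in sign. SRM, spermidine synthase, stood at 11.61 and 11.46, 9.0 and 11.26, a difference of 2.26 or 4.79-fold with a limma standard error of 0.16 and an adjusted p of 0.181. ASF1B, a chaperone that hands histones H3 and H4 to new DNA, stood at 10.56 and 10.48, 7.70 and 9.89. In ARSB the segmented array was between the mock arrays, and in SRM and ASF1B it was 0.28 and 0.63 below the mock mean. ICAM3, an adhesion molecule of leukocytes, stood at 9.89 and 9.71, 6.79 and 8.92, and SLC7A2, a transporter of arginine and lysine, at 8.34 and 8.37, 4.94 and 6.96. CCNE2 was the sixth.

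Of the 51 genes of the lower class that were lower with the segmented than with the intact duplex, the 5 with the largest difference were named. NEDD4L, a ubiquitin ligase that acts on membrane channels, stood at 10.79 and 10.74 in mock, 10.03 with the intact and 9.23 with the segmented duplex, with 2 of 3 probe sets giving the same sign. RBM24, an RNA-binding protein, stood at 9.18 and 9.30, 7.73 and 7.22. FGF2, a fibroblast growth factor, stood at 8.24 and 8.56, 7.21 and 6.81. Of these NEDD4L alone was past 1.5-fold. CPNE8, a copine, and COBLL1 were the next, with differences of -0.39 and -0.38.

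Among genes that did not enter the lower class, 4 had the largest difference with the segmented array higher. WASF2, which drives branching of actin filaments, stood at 10.65 and 10.64 in mock, 8.70 with the intact and 10.71 with the segmented duplex, and all 3 probe sets had the same sign. SZRD1 stood at 10.87 and 10.83, 9.27 and 11.11, with 2 of 3 probe sets of the same sign. MBNL3, a splicing factor, stood at 8.94 and 9.13, 7.67 and 9.51, with 4 of 5. In these 3 genes the segmented array was above both mock arrays by a small margin and the intact array far below. SERINC5, a membrane protein that restricts retroviruses, stood at 10.52 and 10.61, 9.83 and 11.42, with 3 of 4 probe sets of the same sign. It was the only gene at least 1.5-fold under both mock arrays with the intact duplex (9.52% of all genes) and at least 1.5-fold over both with the segmented (7.37%). TLN1, the talin that links integrins to actin, followed the pattern of WASF2, at 10.46 and 10.43, 9.11 and 10.54.

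**Figure D3:**
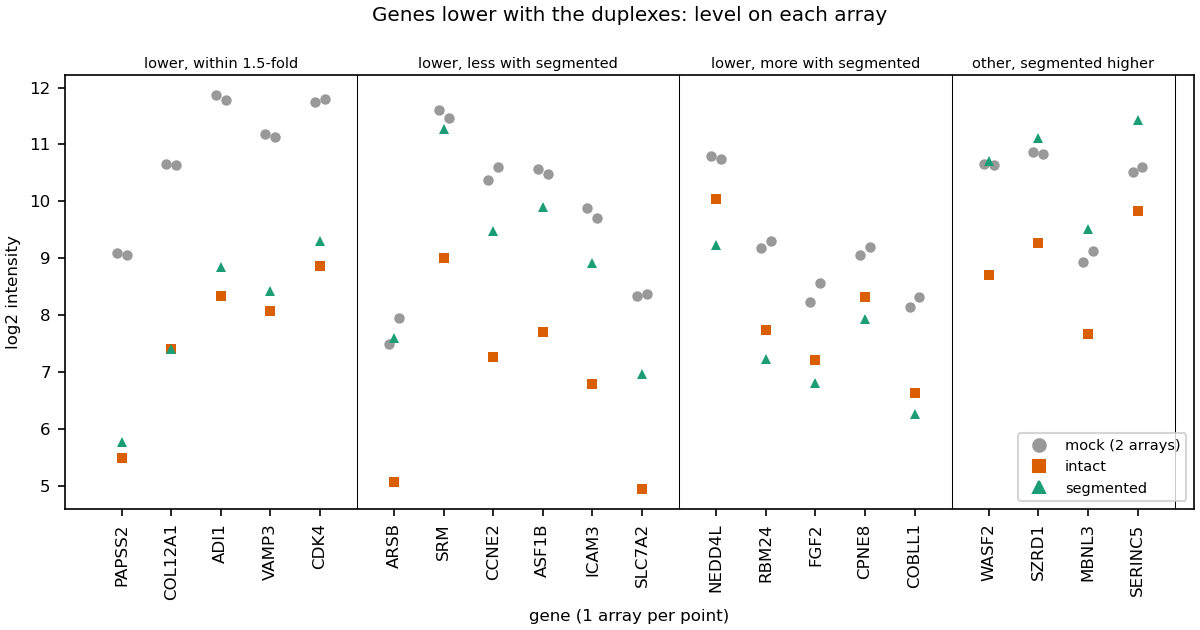
Log2 intensity on each of the 4 arrays for genes lower with the duplexes: grey circles are the 2 mock arrays, squares the intact and triangles the segmented array. From left to right are genes within 1.5-fold, genes less low and genes lower with the segmented duplex, and other genes with the segmented array higher. In SRM and ARSB the triangle sits near the circles, in PAPSS2 and COL12A1 it sits on or near the square.

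Genes induced by p53, the factor that halts the cell cycle after damage, were higher with the intact than with the segmented duplex. Of 28 listed, 26 were measured, with a median of 1.02 with the intact and 0.49 with the segmented duplex, and the median of segmented minus intact was -0.51. There were 10 at least 1.5-fold lower with the segmented duplex (background 4.96%), 0 higher (5.02%) and 16 within. None passed limma in the main setting. Of the 10 members among the 646 genes higher on average, 9 were at least 1.5-fold lower (38.5% of the 646).

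The death receptor FAS stood at 9.12 and 9.23 in mock, 11.07 with the intact and 10.20 with the segmented duplex. TP53I3, an oxidoreductase linked to cell death, stood at 9.72 and 9.67, 12.35 and 11.12, the largest difference of the list at -1.22. XPC, a sensor of DNA damage in excision repair, stood at 8.27 and 8.32 in mock, with the intact array 1.82 and the segmented array 0.95 above the mock mean. In these genes both duplex arrays were above both mock arrays. SESN1, a sestrin, stood at 8.63 and 8.77, 10.94 and 10.15, and TP53INP1 at 10.55 and 10.59, 12.10 and 11.27. A well known p53 target, CDKN1A, the inhibitor p21, had another pattern. It stood at 12.51 and 12.48 in mock, 12.37 with the intact and 11.93 with the segmented duplex, and so was below mock with both. MDM2, which marks p53 for degradation, stood at 7.62 and 7.57, 7.99 and 7.61. Its difference of -0.39 had the direction of the list at a smaller size.

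In the BCL2 family of cell death regulators, 15 of 16 were measured, with a median difference of -0.21, 4 lower and 1 higher past 1.5-fold (4.96% and 5.02% of all genes). With the mean of a gene's probe sets the median was -0.07, with 7 members higher and 8 lower in place of 5 and 10. BCL2L11, the killer protein BIM, stood at 9.72 and 9.79 in mock, 11.38 with the intact and 10.46 with the segmented duplex, with the same sign in all 5 probe sets. BCL2, a protector, stood at 7.55 and 7.59, 5.21 and 6.05, but only 2 of its 4 probe sets gave the same sign. BBC3 and BAX are in this list and in the p53 list. BBC3, the killer protein PUMA, stood at 5.90 and 5.88, 7.53 and 6.93.

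Histone genes ranged from -1.96 to 1.0 in segmented minus intact. Of 24 listed, 21 were measured, with a median difference of -0.33, 9 at least 1.5-fold lower with the segmented duplex (4.96% of all genes), 1 higher (5.02%) and 11 within. There were 9 below the median level on every array, and without the dimmest 40% of genes the median was -0.79. H2BC21 stood at 8.65 and 8.51 in mock, 12.27 with the intact and 10.78 with the segmented duplex. H1-2, a linker histone, stood at 9.28 and 9.53, 11.37 and 10.04. H2BC11 stood at 5.21 and 4.82, 9.05 and 7.09, and H3C10 at 7.31 and 7.12, 10.40 and 9.13. Both duplex arrays were above both mock arrays in these genes. The single member higher with the segmented duplex, H4C3, was below mock, at 9.35 and 8.64, 7.0 and 8.0. Histone genes are near-identical copies, so a probe set may read more than 1 of them.

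Of the 13 lipid and drug transporters, all measured, 3 were at least 1.5-fold lower with the segmented duplex (4.96% of all genes) and 1 higher (5.02%), with a median difference of -0.32. ABCA1, which exports cholesterol, stood at 4.91 and 4.81 in mock, 9.32 with the intact and 7.84 with the segmented duplex. ABCA12, a lipid transporter of skin, stood at 3.88 and 4.40, 8.08 and 6.22. ABCG1, which exports cholesterol to lipoproteins, stood at 5.82 and 6.10, 8.67 and 8.25. Both duplex arrays were above mock in each, and the ABCG1 levels were within 1.5-fold of one another. The mock levels of ABCA1, ABCA12 and ABCG1 are under the median of all genes and may be at background, so their distance from mock has no firm size.

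Of 36 neuronal genes 35 were measured, and 20 of them were below the median level on every array. The median difference was -0.14, with 5 at least 1.5-fold lower with the segmented duplex (4.96% of all genes) and 1 higher (5.02%). The median was -0.31 without the dimmest genes and -0.09 with centred arrays. MAP2, a microtubule protein of dendrites, stood at 9.29 and 9.32 in mock, 11.19 with the intact and 9.97 with the segmented duplex. SCN2A, a neuronal sodium channel, stood at 6.03 and 6.14, 9.82 and 8.68, and RTN1, a reticulon, at 5.68 and 5.97, 8.72 and 7.14. KIF5C, a motor of axonal transport, stood at 8.23 and 8.02, 9.98 and 9.49. In these genes both duplex arrays were above mock and the segmented array was the lower of the pair. TUBB3, the neuronal tubulin, was at 10.58 and 10.41 in mock, 10.76 and 10.80, with the duplexes 0.04 apart.

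Among the 6 higher genes with the largest difference, 4 lay outside the histone and transporter lists. ACTA2, the actin of smooth muscle, stood at 7.21 and 7.14 in mock, 9.40 with the intact and 7.34 with the segmented duplex, a difference of -2.06. TGFB3, a ligand of the TGF-beta family, stood at 6.63 and 6.75, 8.83 and 7.04. ACER2, a ceramidase of the Golgi, stood at 7.17 and 7.36, 10.18 and 8.36, and DNAI3, an axonemal dynein chain, at 5.46 and 5.72, 9.26 and 7.49. In ACTA2 and TGFB3 the segmented array was within 0.35 of the mock mean, and in ACER2 and DNAI3 it was well above it. COL1A1, another marker of mesenchymal cells, stood at 8.71 and 8.41, 9.76 and 9.21, while COL1A2, COL3A1, DCN and LUM were between 1.96 and 4.37 on all arrays.

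The 4 genes outside the transporter list among the 5 with the largest mean change inside 1.5-fold were far above mock with both duplexes. TMT1A, a thiol methyltransferase, stood at 3.73 and 3.97 in mock, 7.78 with the intact and 7.95 with the segmented duplex. WNT2B, a WNT ligand, stood at 5.66 and 5.57, 9.01 and 8.45, and KLRK1, the receptor NKG2D, at 4.21 and 4.42, 7.12 and 6.58. LHFPL5 stood at 4.34 and 4.51, 7.0 and 6.80. The segmented array was slightly higher than the intact array in TMT1A and lower in WNT2B, KLRK1 and LHFPL5. The 5 genes most in favour of the segmented duplex follow. PADI2, an enzyme that turns arginine into citrulline, stood at 6.08 and 6.04, 6.94 and 7.59. CEMIP, which helps break down hyaluronan, stood at 8.2 on both mock arrays, 9.32 and 9.83. TET1, which oxidises methylcytosine, stood at 8.0 on both mock arrays, 8.80 and 9.23. GPR3, an orphan receptor, and ANKRD22 were higher with the segmented duplex by 0.57 and 0.52. In these the segmented array was the highest of the 4.

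Among genes that did not enter the higher class, 4 had the largest difference with the segmented array lower. PLA2G4D, a phospholipase A2, stood at 3.39 and 3.42 in mock, 7.92 with the intact and 5.11 with the segmented duplex, the largest difference named here at -2.81. C2orf66 stood at 5.03 and 4.74, 6.87 and 4.72, and MUC19, a secreted mucin, at 3.64 and 3.58, 7.33 and 5.44. RGS6, a regulator of G-protein signalling, stood at 4.81 and 4.86, 6.88 and 5.10. All 4 had mock levels under the median of all genes.

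**Figure D4:**
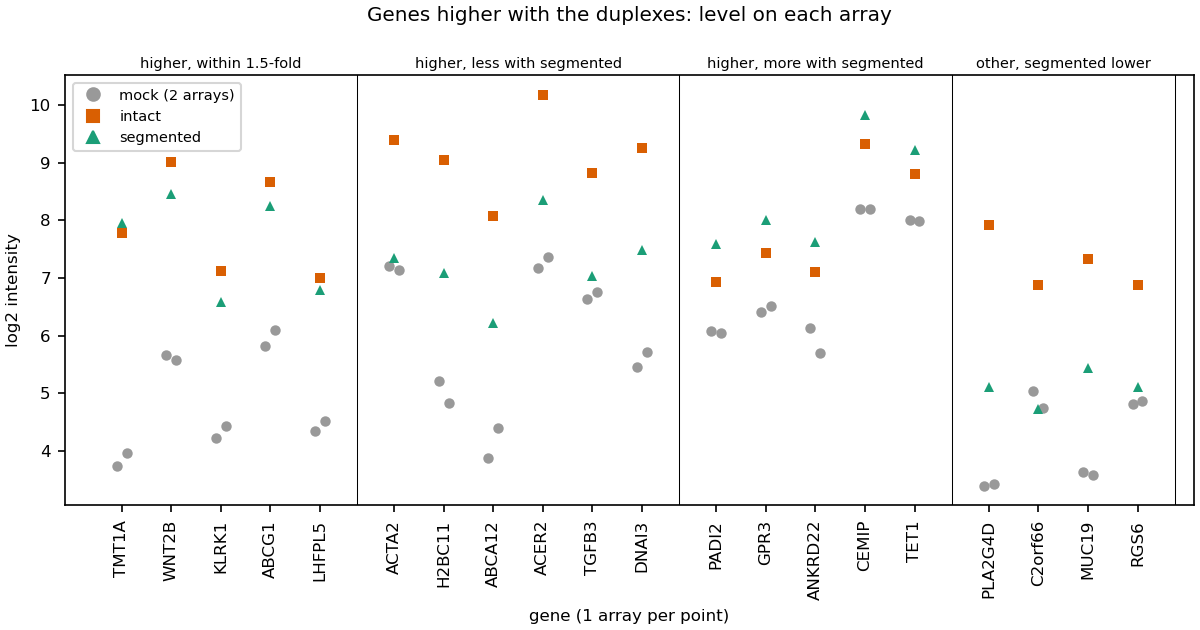
Log2 intensity on each of the 4 arrays for genes higher with the duplexes: grey circles are the 2 mock arrays, squares the intact and triangles the segmented array. From left to right are genes within 1.5-fold, genes less high and genes higher with the segmented duplex, and other genes with the segmented array lower. In ACTA2 and TGFB3 the triangle sits near the circles, while in TMT1A and LHFPL5 it sits near the square.

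In the remaining lists the median difference was small. Sterol synthesis, with 19 of 25 genes measured, had a median of -0.63 with the intact and -0.34 with the segmented duplex and a median difference of 0.12. In that list DHCR7, an enzyme of the last steps of cholesterol synthesis, stood at 9.98 and 9.88 in mock, 7.74 with the intact and 8.75 with the segmented duplex, while HMGCS1, an early enzyme of the pathway, stood at 12.29 and 12.28, 11.34 and 11.59. Immediate early genes with MYC and MYB, 20 of 22 measured, had a median difference of 0.20. MYB, a factor of immature cells, stood at 9.82 and 9.84, 6.33 and 7.75, while MYC stood at 11.51 and 11.32, 10.06 and 10.33. Both duplex arrays were below mock in these 4 genes, with the intact array the lower.

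The interferon list had 37 of 40 genes measured and a median difference of -0.02, with 2 higher and 3 lower past 1.5-fold, close to the shares over all genes (5.02% and 4.96%). IFIT1, an early interferon gene, stood at 7.25 and 7.06 in mock, 8.92 with the intact and 8.57 with the segmented duplex, so it was above mock with both. The small RNA pathway, with all 35 measured, had a median of -0.03, with 5 higher (5.02%) and 0 lower (4.96%). AGO1, an Argonaute, stood at 10.31 and 10.29, 9.97 and 10.60. AGO2, the Argonaute that cuts targets, stood at 10.47 and 10.37, with the intact and segmented arrays at -0.30 and -0.04 from the mock mean. TSN, a subunit of the nuclease that removes passenger strands, stood at 11.96 and 12.04, 9.92 and 10.58. AGO2 was within 1.5-fold of mock with both duplexes and TSN was below mock with both.

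The 14 measured let-7 targets (of 16) had a median difference of -0.11. Past 1.5-fold 1 was higher, CDC25A, and 1 lower, HIC2, near the shares over all genes (5.02% and 4.96%). The lists of adhesion, matrix and actin (32 of 40 measured), epithelial and colon genes (27 of 29), lysosome and proton pump (26 of 30), stress of the endoplasmic reticulum and of amino acids (25 of 29), cytosolic ribosomal proteins (25 of 30), housekeeping (14 of 16) and other cell types (20 of 21) had medians between -0.11 and 0.08. The median level of all genes differed by -0.05 between the segmented and the intact array, and by 0.243 and 0.193 between the intact and the segmented array and mock, so no direction is given for lists with medians this small. In these lists, apart from ACTA2, KDELR3 had the largest difference. KDELR3, a receptor that returns proteins to the endoplasmic reticulum, stood at 10.05 and 10.16 in mock, 6.56 with the intact and 8.19 with the segmented duplex. PROM2, a prominin of epithelia, stood at 6.46 and 6.17, 10.13 and 8.80.

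**Figure D5:**
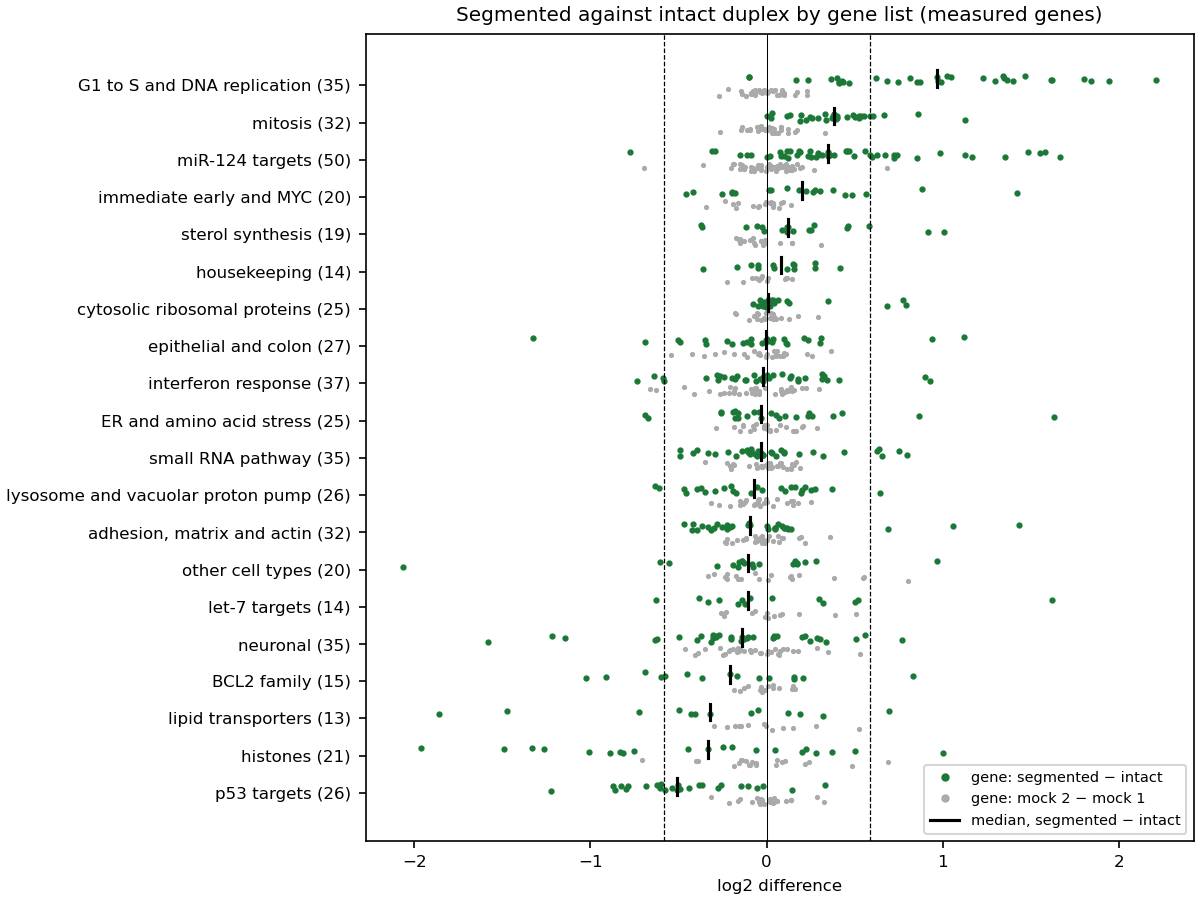
Each green dot is a measured gene of 1 of the 20 lists, placed by its log2 difference of the segmented from the intact duplex, and each grey dot is the mock 2 minus mock 1 difference of the same gene; black bars are list medians and dashed lines mark 1.5-fold. The G1 to S list lies furthest to the right (median 0.97) and the p53 list furthest to the left (median -0.51).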

How the data were processed

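The authors deposited linear intensities, 1 for each probe set of each array. Per the submitters' processing notes they come from RMA, which corrects background, equalises the quantiles of the arrays and sums probes into probe sets; no version of RMA is given in the sources used here. Biotin-labelled cRNA was hybridised, per the labels' protocols. Intensities ran from 2.51 to 22268, and the array medians were 44.3 and 42.6 in mock, 46.3 (intact) and 45.3 (segmented). Quantile normalization makes arrays share a distribution, so a shift of most genes would be removed. No detection call was used, and a single array per duplex limits the precision.

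Values were taken to log2 with no pseudocount. Of 52377 probe sets, 35184 had 1 gene in an annotation of the platform, 374 several and 16819 none or no listing. Current symbols came from a RefSeq table of GRCh38.p14 by Entrez identifier, which 35134 matched and 50 did not. For 8731 genes with several probe sets the brightest over the 4 arrays stood for the gene.

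Segmented minus intact was fitted in limma 3.58.1 (R 4.3.3) as group means of all 4 arrays, with Benjamini-Hochberg adjustment over 19798 genes. The mock pair gives the 1 residual degree of freedom, and the prior has 2.89. The lone duplex arrays are assumed to vary like mock. Scripts were tested on simulated data. Alternatives were a further quantile normalization, centring on array medians, leaving out the dimmest 40% of genes, the mean of probe sets, a trended robust prior, 1.5-fold thresholds and leaving out each mock array.

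The members and lists were chosen with earlier results of these data known. Genes were named by rule. In the lower and in the higher class these were the 5 with the largest mean change inside 1.5-fold, the 6 most weakened and the 5 most strengthened with the segmented duplex. Outside the classes they were the 4 largest differences each way. Of each list up to 4 members with the largest difference could be named, besides 18 fixed genes. Other members, such as SMYD3, HADH, EFNB1, CCNE1, E2F1, E2F2, E2F8, MCM2, MCM10, PCNA, CDK1, SESN1, H4C3, KIF5C, TUBB3, HMGCS1, MYC, IFIT1, AGO2, PPP1R14C, PLA2G12A, MB21D2 and TENT5C, were named after their values were seen.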

Additional observations from a re-analysis of the deposited data

Results flagged for a closer look

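SERINC5 moved in opposite directions under the 2 duplexes. It was at least 1.5-fold under both mock arrays with the intact duplex and at least 1.5-fold over both with the segmented, with segmented minus intact at 1.60. The difference was not tested beyond limma, where it did not pass with 1 array for each duplex.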

How the results depend on the processing

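No paired analysis was possible because each duplex group has 1 array. The count of genes past limma went from 0 to 1850 without the dimmest 40% of genes and to 2412 with a trended robust prior, while a further quantile normalization, centring and the mean of probe sets left it at 0. Leaving out a mock array leaves no residual degree of freedom for limma. At 1.5-fold the counts apart were 994 higher and 981 lower, and without the dimmest genes 90 were at least 2-fold lower. The median of segmented minus intact in the lower class was 0.65 without the dimmest genes and 0.46 when the class began at 1.5-fold, and that of the higher class was -0.36 when it began at 1.5-fold. Leaving out each mock array in turn gave 0.59 to 0.60 in the lower class, and -0.48 each time in the higher class. Centring gave list medians of 0.40 for miR-124 targets, 1.02 for G1 to S, 0.43 for mitosis and -0.46 for p53 targets. Of 129 genes named or fixed by the rule, 0 passed limma in the main setting, under centring or under quantile normalization, where 0 genes passed at all. Many passed with the trended robust prior or without the dimmest genes. Most of the 129 were chosen by the size of the same difference, so their passing was set by that choice. With the mean of probe sets 2 of the 129 moved, COL12A1 to -0.12 and RPS2 to -0.16. With 1 array a duplex, differences of the size seen between the mock arrays could not be resolved.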

Other observations

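The lists described here were written after values had been seen, so their counts are descriptions. In homologous recombination and Fanconi anemia repair, which mend broken and crosslinked DNA, 22 of 27 genes were measured. The median was -0.83 with the intact and -0.39 with the segmented duplex, and 8 genes were at least 1.5-fold higher with the segmented duplex and 0 lower, against 5.02% and 4.96% of all genes. BLM, a helicase, stood at 10.81 and 10.77 in mock, 8.56 with the intact and 9.95 with the segmented duplex. FANCL, the ligase of the Fanconi complex, stood at 9.12 and 9.10, 7.45 and 8.60. BRCA1 was within 1.5-fold, at 9.67 and 9.36, 8.71 and 9.24. Among histone chaperones, 14 of 16 measured, 4 were at least 1.5-fold higher with the segmented duplex (5.02% of all genes) and 0 lower (4.96%). Besides ASF1B they included SLBP, which binds the stem-loop of histone messengers, at 11.22 and 11.27 in mock, 8.82 and 9.67.

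Of 25 sphingolipid enzymes 21 were measured, with 4 higher and 1 lower past 1.5-fold (5.02% and 4.96% of all genes). Ceramidases went both ways. ACER3 stood at 10.48 on both mock arrays, 8.57 with the intact and 9.92 with the segmented duplex, with the same sign in all 9 probe sets, while ACER2 was above mock with both. SGPL1, which breaks down sphingosine phosphate, stood at 11.54 and 11.47, 10.11 and 10.96. In polyamine synthesis and methionine salvage, 15 of 16 measured, 2 genes were at least 1.5-fold higher with the segmented duplex (5.02% of all genes), SRM and MTAP. MTAP, an enzyme of methionine salvage, stood at 11.12 and 11.21, 10.31 and 10.99, and ODC1, which makes putrescine, at 12.23 and 12.11, 12.08 and 11.94. Of 9 NEDD4 family ubiquitin ligases, NEDD4 was low with both duplexes, at 7.93 on both mock arrays, 5.60 and 5.43, and NEDD4L alone was past 1.5-fold, lower with the segmented duplex (4.96% of all genes).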
